A study of Mus musculus with 34 samples.

Results

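Interferon response and antigen presentation genes were followed in the cortex of 15-week-old mice, to ask whether Ifi27l2a, an interferon-inducible gene of the IFI27 family, was raised alone or together with an interferon programme. The set was a list of 35 genes, each read from its brightest probe set, by mean over the 34 arrays, among those annotated with that symbol alone. Of the 35, 33 had such a probe set, out of 18193 genes and 45037 probe sets in all. Isg15 was covered only by a probe set annotated with several symbols, which was not used, and Ifi44 had none.

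The 34 arrays, 1 per mouse, came from 4 genotypes on a mixed CBA and C57Bl/6 background. Dble::R6/2 mice (n = 9) carried both the R6/2 transgene and 1 targeted Hdac4 allele. R6/2 mice (n = 9) carried the transgene alone, a fragment of mutant human HTT that models Huntington's disease. Hdac4HET mice (n = 8) carried the targeted allele alone, and WT mice (n = 8) carried neither. The targeted allele had been made in a 129S strain before it was bred to the mixed background, so mice could differ in strain-specific sequence as well as in genotype. Values were log2 expression levels, on which a difference of 1 is a doubling. Each pair of genotypes was tested with limma, with Benjamini-Hochberg adjustment over all probe sets, and a gene was called at an adjusted p of 0.05 or less.

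Interferons are secreted proteins that signal through surface receptors and JAK kinases. Type I interferons activate a complex that holds STAT2 and IRF9 and binds the interferon-stimulated response element of target promoters. The induced genes encode antiviral effectors, sensors of foreign nucleic acid, and the machinery that loads peptides on class I molecules of the major histocompatibility complex. In the brain, microglia and endothelial cells respond strongly to interferons.

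Array medians lay between 5.44 and 5.52, and the lowest correlation between arrays of the same genotype was 0.973. The number of arrays limits the precision of every comparison. The second brightest Hdac4 probe set was lower in Dble::R6/2 than in R6/2 (log2 difference -0.61, limma adjusted p = 0.00033) and lower in Hdac4HET than in WT (-0.51, adjusted p = 0.00743), while the brightest gave -0.33 (adjusted p = 0.691) and -0.48 (adjusted p = 0.0036). The third gave -0.08 (adjusted p = 0.945) and -0.36 (adjusted p = 0.0299), and was also lower in R6/2 than in WT (-0.39, adjusted p = 0.00449). The sex label went against the Xist level in 15 arrays. R6/2 replicate 2 had the highest mean level of epidermal markers, 6.76. In 4 arrays (WT replicates 2, 6 and 7 and Hdac4HET replicate 1) Prl, a pituitary hormone transcript, was above a log2 level of 8.

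Promoters are shown first, for the response element named above. The list was made of interferon response and antigen presentation genes, so a motif share above that of all genes says nothing about these mice. Windows from 250 bases before to 50 after the annotated start were taken from RefSeq (GRCm38.p6), which held 27 of the 35 genes, without Ifi27l2a, Ifi27, Mx1, Mx2, Usp18, Rtp4, Parp14 and Tap2. The motif GAAANNGAAA, or TTTCNNTTTC on the other strand, was found for 13 of these 27 genes (48.1%), against 3.99% of all 27025 genes in the table. It was found for 7 of the 15 that were called higher in R6/2 than in WT and for 5 of the 10 that were measured and not called higher. The gamma-activated motif TTCNNNGAA, which reads the same on both strands, was found for 6 of the 27 (22.2%), against 9.55% of all genes. A match says only that the letters are in the window.
The stretches below are from 4 antiviral effectors that were called higher in at least 1 comparison and from B2m, which was called lower, with 1 match to GAAANNGAAA, on either strand, in capitals. The Ifit1 stretch holds a further match in lower case, and that of Bst2 a further match that overlaps the capitals.
Ifit1, chr19:34640760-34640819, + strand: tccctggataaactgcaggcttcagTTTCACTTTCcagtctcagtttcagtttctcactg
Ifit3, chr19:34583348-34583407, + strand: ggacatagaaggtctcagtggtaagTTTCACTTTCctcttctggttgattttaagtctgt
Rsad2, chr12:26456538-26456597, - strand: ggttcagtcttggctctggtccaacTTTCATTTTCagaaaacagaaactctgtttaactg
Bst2, chr8:71537562-71537621, - strand: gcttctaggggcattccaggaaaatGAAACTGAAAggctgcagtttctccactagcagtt
B2m, chr2:122147523-122147582, + strand: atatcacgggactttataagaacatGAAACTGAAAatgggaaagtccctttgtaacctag
Ifit1 and Ifit3 carry the same 10 letters in capitals, and so do Bst2 and B2m.

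Ifi27l2a encodes a small membrane protein and was the most raised gene of the set. Its lowest, median and highest log2 levels were 5.58, 5.96 and 6.23 in Dble::R6/2 and 5.43, 6.01 and 7.41 in R6/2. They were 3.76, 4.32 and 4.61 in Hdac4HET and 3.84, 4.01 and 4.74 in WT. Every mouse with the transgene lay above every mouse without it, and the highest value of all was that of R6/2 replicate 2. The mean was 6.10 ± 0.57 in R6/2 (SD, n = 9) and 4.08 ± 0.28 in WT (SD, n = 8), a difference of 2.02 ± 0.20 (SE, limma adjusted p = 6.6e-07), or 4.06-fold. On the Hdac4 background it was 5.91 ± 0.23 in Dble::R6/2 and 4.27 ± 0.28 in Hdac4HET, a difference of 1.64 ± 0.11 (SE, limma adjusted p = 4.68e-09), or 3.11-fold. Ranked by the size of the rise, Ifi27l2a was 7 of 18193 genes in R6/2 against WT and 13 in Dble::R6/2 against Hdac4HET. Without R6/2 replicate 2, the difference between R6/2 and WT was 1.86 (adjusted p = 1.84e-08).

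Ifi27l2a did not rise alone. In R6/2 against WT, 20 of the 33 genes were called higher and 2 lower, where 20.2% of all 18193 genes were called higher, 11.8% lower, and 26.9% of all probe sets were called in either direction. The median difference was 0.38 over the 33 genes and 0.02 over all genes. In Dble::R6/2 against Hdac4HET, which shares no array with that comparison, 20 of the 33 were called higher and 0 lower by limma, where 18.3% of all genes were called higher, 11.7% lower, and 23.1% of all probe sets were called. Here 23 of the 33 had an unadjusted limma p under 0.05, as did 14532 of all 45037 probe sets, and 4 of the 33 had a negative difference. Calls in either direction in R6/2 against WT numbered 22. They numbered 23 without R6/2 replicate 2, where Ifit3 was lost and Bst2 and Xaf1 were gained. Without the arrays with high Prl they numbered 19, where B2m, Ifih1, Ifit3 and Oas1a were lost and Xaf1 was gained. Of the 7 genes called higher in R6/2 that had another probe set, 3 were also called higher on the next brightest, and 4 of 7 were in Dble::R6/2 against Hdac4HET. The genes called higher in both comparisons numbered 18, or 90.0% of each list. Oas1a and Tapbp were called only in R6/2 against WT, and Bst2 and Xaf1 only in Dble::R6/2 against Hdac4HET. In 9 genes every R6/2 mouse lay above every WT mouse, where 6.31% of all genes did so, and in 13 every Dble::R6/2 mouse lay above every Hdac4HET mouse, where 4.41% did so.

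**Figure D1:**
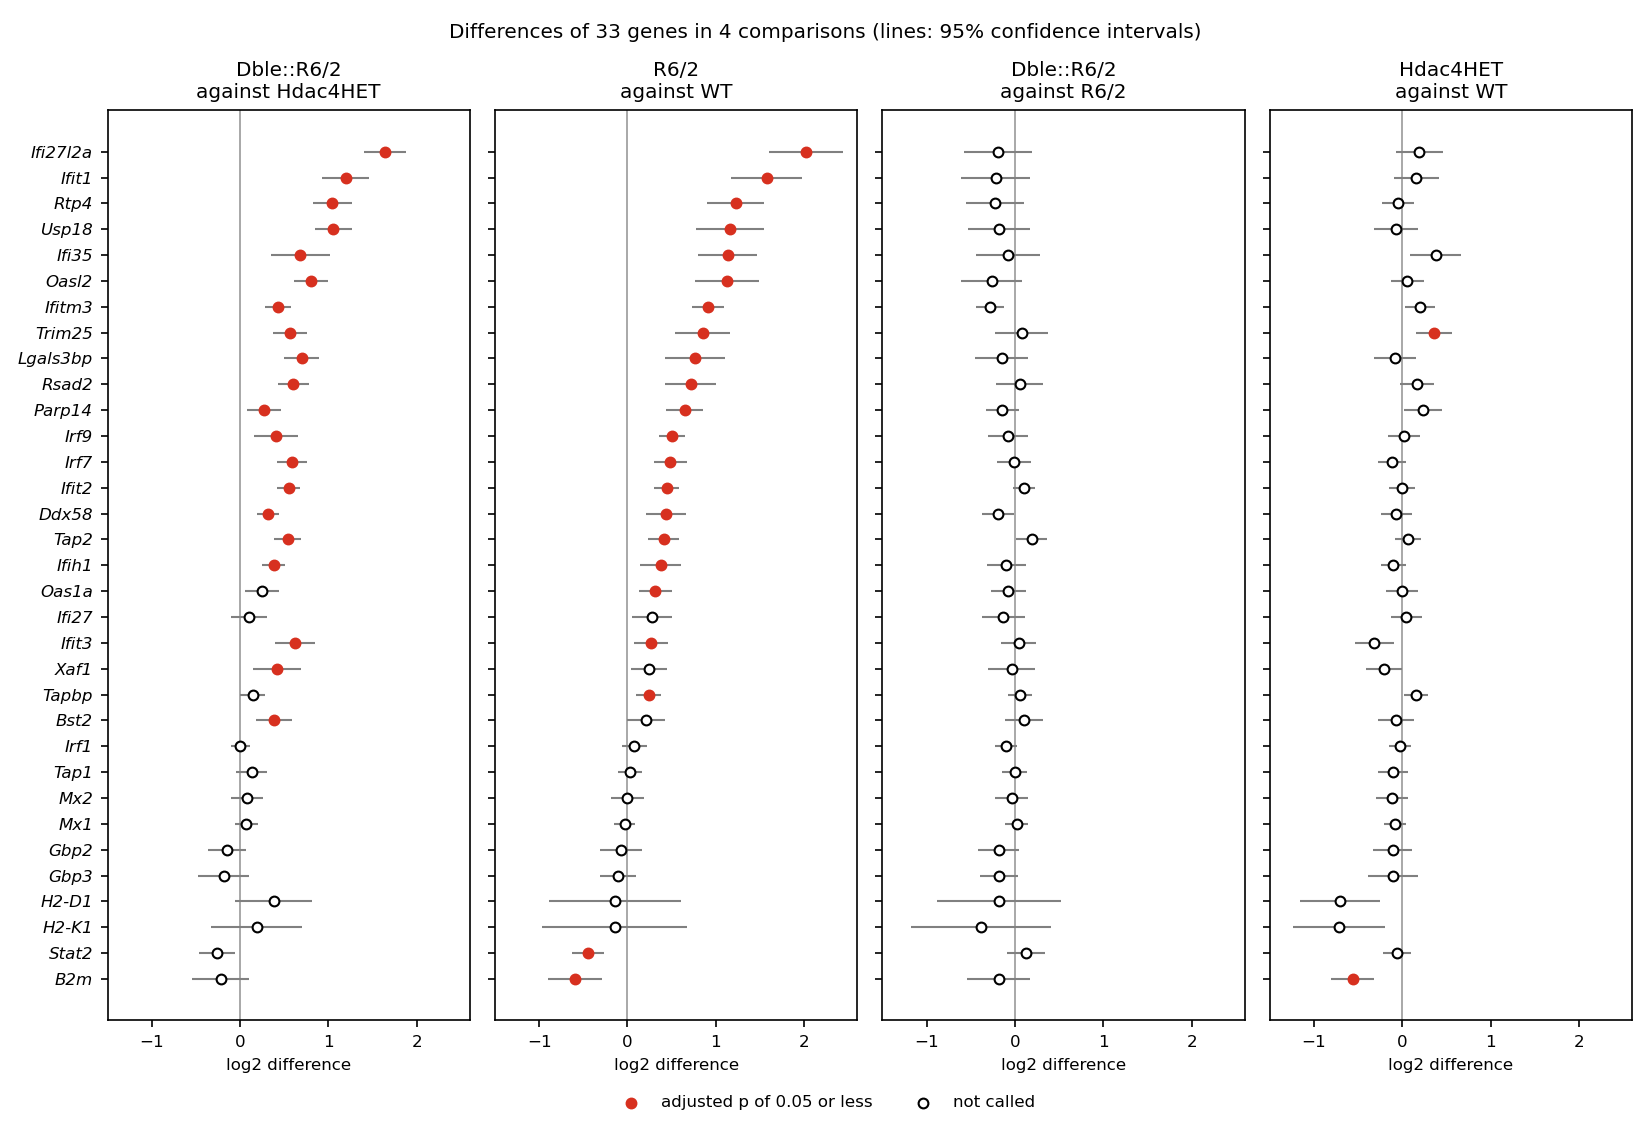
Log2 difference of each of the 33 measured genes (rows) in the 4 comparisons, with points for the limma estimate and bars for its 95% confidence interval. Ifi27l2a lies farthest to the right in both comparisons that differ by the transgene, at 2.02 in R6/2 against WT and 1.64 in Dble::R6/2 against Hdac4HET.

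The plot of differences shows that the rises in both transgene comparisons run through most functional classes, and that the largest are a few effectors and regulators. By role, the genes called higher in R6/2 against WT, where 20.2% of all genes were, included 3 of 3 sensors and their partners and 2 of 4 transcription factors. They also included 1 of 2 IFI27 family genes, 7 of 10 antiviral effectors, and 5 of 6 genes of the ISG15 system and other interferon-stimulated genes. Guanylate-binding proteins had 0 of 2 and class I genes 2 of 6. In Dble::R6/2 against Hdac4HET, the only classes whose counts differed were the ISG15 system and related genes, with 6 of 6, and class I, with 1 of 6. The latter is near the 18.3% of all genes called higher there.

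Among antiviral effectors, Ifit1, which binds viral RNA lacking host cap methylation, came next to Ifi27l2a. Its lowest, median and highest levels were 5.65, 5.96 and 6.52 in Dble::R6/2 and 5.63, 6.19 and 7.47 in R6/2, and 4.46, 4.82 and 5.27 in Hdac4HET and 4.17, 4.67 and 5.11 in WT. Mice with and without the transgene did not overlap. The difference was 1.57 ± 0.19 (SE, limma adjusted p = 6.07e-06) in R6/2 against WT and 1.20 (adjusted p = 9.53e-07) in Dble::R6/2 against Hdac4HET. Ifitm3, a membrane protein that blocks virus entry, was 8.70, 8.88 and 9.15 in Dble::R6/2 and 8.93, 9.18 and 9.38 in R6/2, and 8.30, 8.48 and 8.65 in Hdac4HET and 8.01, 8.24 and 8.56 in WT. Its difference was 0.91 ± 0.09 (adjusted p = 3.39e-07) between R6/2 and WT and 0.43 (adjusted p = 0.000113) between Dble::R6/2 and Hdac4HET. All mice with the transgene were again above all without it.

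Oasl2, of the oligoadenylate synthetase family, was 4.68, 4.83 and 5.40 in Dble::R6/2 and 4.33, 5.18 and 6.07 in R6/2, and 3.91, 4.07 and 4.31 in Hdac4HET and 3.83, 3.93 and 4.47 in WT. The R6/2 and WT ranges overlapped, while those of Dble::R6/2 and Hdac4HET did not. The differences were 1.12 ± 0.17 (SE, limma adjusted p = 7.78e-05) and 0.80 (adjusted p = 2.42e-06). Rsad2, which makes an antiviral nucleotide, rose by 0.71 in R6/2 over WT (adjusted p = 0.000579) and by 0.60 in Dble::R6/2 over Hdac4HET. Ifit2 rose by 0.45 and 0.55. Ifit3 rose by 0.62 in Dble::R6/2 over Hdac4HET, but by 0.26 (adjusted p = 0.0398) in R6/2 over WT, a call that was lost in 15 of the alternative fits and under a rule that also asks for a change of over 30%. The antiviral GTPase genes Mx1 and Mx2 differed by -0.03 and 0.00 between R6/2 and WT and were not called. The only Mx1 probe set was dim, with a mean of 3.07 (percentile 9.52 of all probe sets), so it can show little about Mx1. Bst2, the tethering protein that holds virus particles on the cell, rose by 0.38 in Dble::R6/2 over Hdac4HET (adjusted p = 0.00704) and gave 0.21 (adjusted p = 0.152) in R6/2 against WT. Oas1a, an RNA-sensing synthetase, rose by 0.32 in R6/2 over WT (adjusted p = 0.0109, and 0.0995 without the arrays with high Prl) and gave 0.25 (adjusted p = 0.0622) in Dble::R6/2 against Hdac4HET. Ifi27, the family member next to Ifi27l2a on the list, gave 0.28 (adjusted p = 0.0642) and 0.10 (adjusted p = 0.54), and -0.10 (adjusted p = 0.506) and 0.06 (adjusted p = 0.736) on its second probe set.

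**Figure D2:**
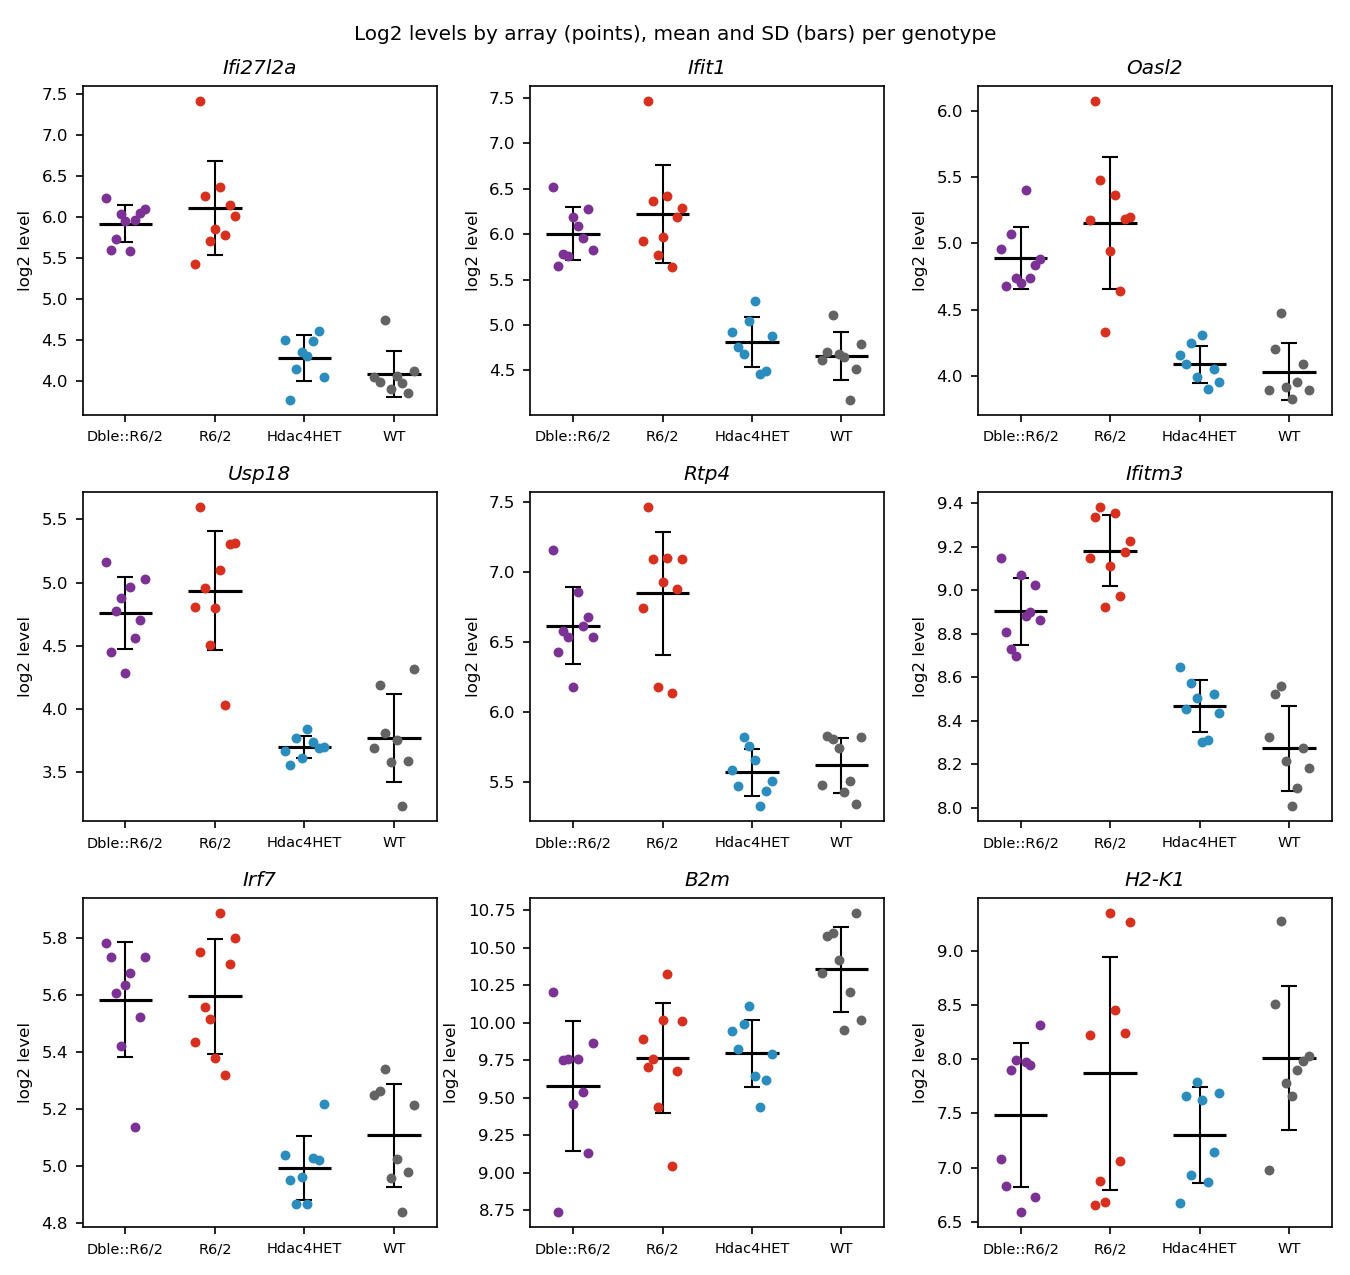
Log2 level of 9 genes in each mouse by genotype, 1 point per array, with the mean and SD of each genotype. Ifi27l2a, Ifit1, Rtp4 and Ifitm3 are higher in every mouse with the transgene than in any without it, whereas B2m has its highest mean in WT and H2-K1 is spread widely within each genotype.

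The plot of levels by mouse also holds regulators of the response. Usp18, which removes ISG15 from proteins and limits receptor signalling, was 4.29, 4.77 and 5.16 in Dble::R6/2 and 4.03, 4.96 and 5.60 in R6/2, and 3.56, 3.70 and 3.84 in Hdac4HET and 3.23, 3.73 and 4.32 in WT. R6/2 and WT overlapped, and Dble::R6/2 and Hdac4HET did not. Its difference was 1.16 ± 0.18 (SE, limma adjusted p = 9.95e-05) in R6/2 against WT and 1.06 (adjusted p = 2.35e-07) in Dble::R6/2 against Hdac4HET. Rtp4, an interferon-inducible gene of the receptor transporter protein family, was 6.18, 6.58 and 7.15 in Dble::R6/2 and 6.14, 6.93 and 7.46 in R6/2. It was 5.33, 5.55 and 5.82 in Hdac4HET and 5.35, 5.63 and 5.83 in WT. No mouse with the transgene was within the range of those without. The differences were 1.23 ± 0.15 (adjusted p = 9.35e-06) and 1.04 (adjusted p = 5.03e-07). A second, dim Rtp4 probe set, with a mean of 3.14, gave 0.07 (adjusted p = 0.571) and -0.04 (adjusted p = 0.712). Ifi35 rose by 1.13 in R6/2 over WT (adjusted p = 2.8e-05), but its other probe sets gave 0.40 and 0.14. Parp14, an ADP-ribosyltransferase, rose by 0.65 in R6/2 over WT and by 0.27 (adjusted p = 0.0336) in Dble::R6/2 over Hdac4HET. The second of these calls was lost without the arrays with high Prl, and without any of Dble::R6/2 replicates 2, 4 and 6 or Hdac4HET replicates 1, 3, 4 and 7, at adjusted p values of 0.0504 to 0.0714. The second Parp14 probe set gave 0.09 (adjusted p = 0.588) and -0.13 (adjusted p = 0.386). Lgals3bp, a secreted glycoprotein, rose by 0.76 and 0.70. Xaf1 rose by 0.42 in Dble::R6/2 over Hdac4HET (adjusted p = 0.0228) and gave 0.25 (adjusted p = 0.0695) in R6/2 against WT. The guanylate-binding protein genes Gbp2 and Gbp3, GTPases of host defence, gave -0.07 and -0.11 in R6/2 against WT and -0.15 and -0.19 in Dble::R6/2 against Hdac4HET, and were not called.

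The RNA sensor genes Ddx58 and Ifih1 (RIG-I and MDA5) rose by 0.44 and 0.38 in R6/2 over WT (adjusted p = 0.00422 and 0.0172, the second 0.163 without the arrays with high Prl), and Trim25, the ubiquitin ligase that acts with RIG-I, by 0.85 (limma adjusted p = 0.000277). The rises in Dble::R6/2 over Hdac4HET were 0.32, 0.38 and 0.57. Irf7, a transcription factor that amplifies type I interferon, was 5.14, 5.63 and 5.78 in Dble::R6/2 and 5.32, 5.56 and 5.89 in R6/2, and 4.87, 4.99 and 5.22 in Hdac4HET and 4.84, 5.12 and 5.34 in WT. The ranges overlapped in both comparisons, and the differences were 0.49 (adjusted p = 0.000457) for R6/2 against WT and 0.59 (adjusted p = 1.91e-05) for Dble::R6/2 against Hdac4HET. Irf9 rose by 0.50 and 0.41, and Irf1 gave 0.08 and 0.00 and was not called. Stat2, the partner of Irf9 in the type I complex, went the other way. It was 4.86, 5.22 and 5.51 in R6/2 and 5.51, 5.62 and 5.92 in WT, and every R6/2 mouse was below every WT mouse. The difference was -0.44 ± 0.09 (SE, adjusted p = 0.000724), and its second probe set gave -0.55 (adjusted p = 0.00168). In Dble::R6/2 against Hdac4HET it was -0.26 (adjusted p = 0.0591).

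Class I genes did not move as a block. Tap2, a subunit of the peptide transporter, rose by 0.41 in R6/2 over WT (limma adjusted p = 0.00102) and by 0.54 in Dble::R6/2 over Hdac4HET (adjusted p = 1.69e-05), while its partner Tap1 gave 0.03 and 0.13 and was not called. Tapbp, which bridges the transporter to class I molecules, rose by 0.24 in R6/2 over WT (adjusted p = 0.00981), and gave 0.14 (adjusted p = 0.15) in Dble::R6/2 against Hdac4HET. Its second probe set gave -0.07 (adjusted p = 0.748) in R6/2 against WT, and the call was lost on the mean of its probe sets (0.08, adjusted p = 0.463). B2m, the light chain of all class I molecules, was 8.73, 9.75 and 10.20 in Dble::R6/2 and 9.05, 9.76 and 10.32 in R6/2, and 9.44, 9.81 and 10.11 in Hdac4HET and 9.95, 10.38 and 10.73 in WT. All ranges overlapped, with WT the highest. The difference was -0.59 ± 0.15 (SE, adjusted p = 0.00505) in R6/2 against WT and -0.56 ± 0.12 (adjusted p = 0.0264) in Hdac4HET against WT, and both comparisons use the same WT arrays. The second B2m probe set gave -0.82 (adjusted p = 0.00194) in R6/2 against WT. For Dble::R6/2 against Hdac4HET the brightest gave -0.22 (adjusted p = 0.378). Without the arrays with high Prl, the B2m difference between R6/2 and WT was -0.50 (adjusted p = 0.0532).

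The heavy chain gene H2-K1 was 6.59, 7.90 and 8.31 in Dble::R6/2 and 6.65, 8.22 and 9.35 in R6/2, and 6.67, 7.38 and 7.79 in Hdac4HET and 6.97, 7.94 and 9.27 in WT. Mice within a genotype differed more than the genotype means, and the R6/2 difference from WT was -0.14 ± 0.39 (SE, limma adjusted p = 0.846). H2-D1 showed distinct levels. On its second brightest probe set, 13 arrays were under 7, 18 were between 7 and 9.5, and 3 were over 9.5. The arrays under 7 were 4 Dble::R6/2, 4 R6/2, 4 Hdac4HET and 1 WT, and those over 9.5 were R6/2 replicates 5 and 9 and WT replicate 3. The third brightest probe set ran the other way, at 6.64 to 7.85 in the first class, 5.87 to 7.05 in the second and 3.40 to 4.05 in the third. Heavy chain genes differ in sequence between inbred strains, and probes of these sets can be shared among heavy chain genes. The part of strain alleles in these levels was not tested.

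**Figure D3:**
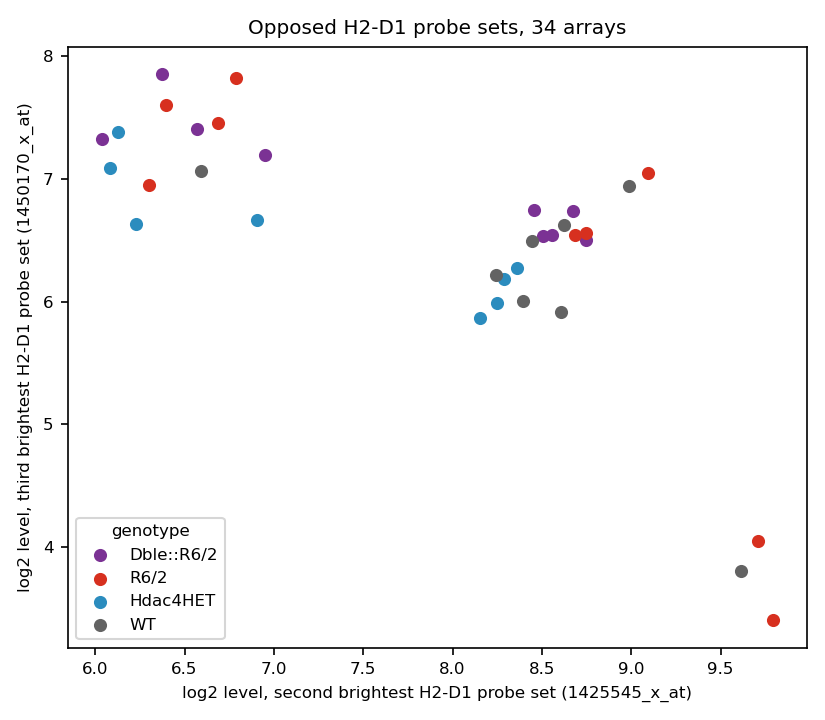
Log2 level of the third brightest H2-D1 probe set against that of the second brightest, 1 point per array, by genotype. The 3 arrays over 9.5 on the second brightest set are at 3.40 to 4.05 on the third brightest, and the 13 arrays under 7 are at 6.64 to 7.85.

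The Hdac4 allele was compared alone and on the transgene. In Hdac4HET against WT, 1 of 33 genes was called higher, Trim25 (0.36, limma adjusted p = 0.048), and 1 lower, B2m, where 1.46% of all genes were called higher, 1.71% lower, and 3.91% of all probe sets were called. Ifi27l2a differed by 0.19 (95% confidence interval -0.08 to 0.46, adjusted p = 0.422). Leaving out any of WT replicate 2 or Hdac4HET replicates 5, 6 and 7 left 0 of 33 called, and leaving out any of WT replicates 3 to 7 or Hdac4HET replicates 2 and 8 left 1. Without the arrays with high Prl, 0 were called, and B2m differed by -0.49 (adjusted p = 0.204). In Dble::R6/2 against R6/2, 0 of 33 were called by limma, and 0.00666% of all probe sets were. Of the 33, 3 had an unadjusted p under 0.05, as did 2559 of all 45037 probe sets. Ifi27l2a differed by -0.19 there (95% confidence interval -0.58 to 0.20, adjusted p = 0.94), and by -0.03 without R6/2 replicate 2. Ifitm3 differed by -0.28 (-0.44 to -0.12, adjusted p = 0.773). In the test of whether the transgene effect differed with the Hdac4 allele, 0 of 33 were called, and 0.00222% of all probe sets were. Of the 33, 3 had an unadjusted p under 0.05, as did 4444 of all 45037 probe sets. For Ifi27l2a that difference of differences was -0.38 (adjusted p = 0.623).

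**Figure D4:**
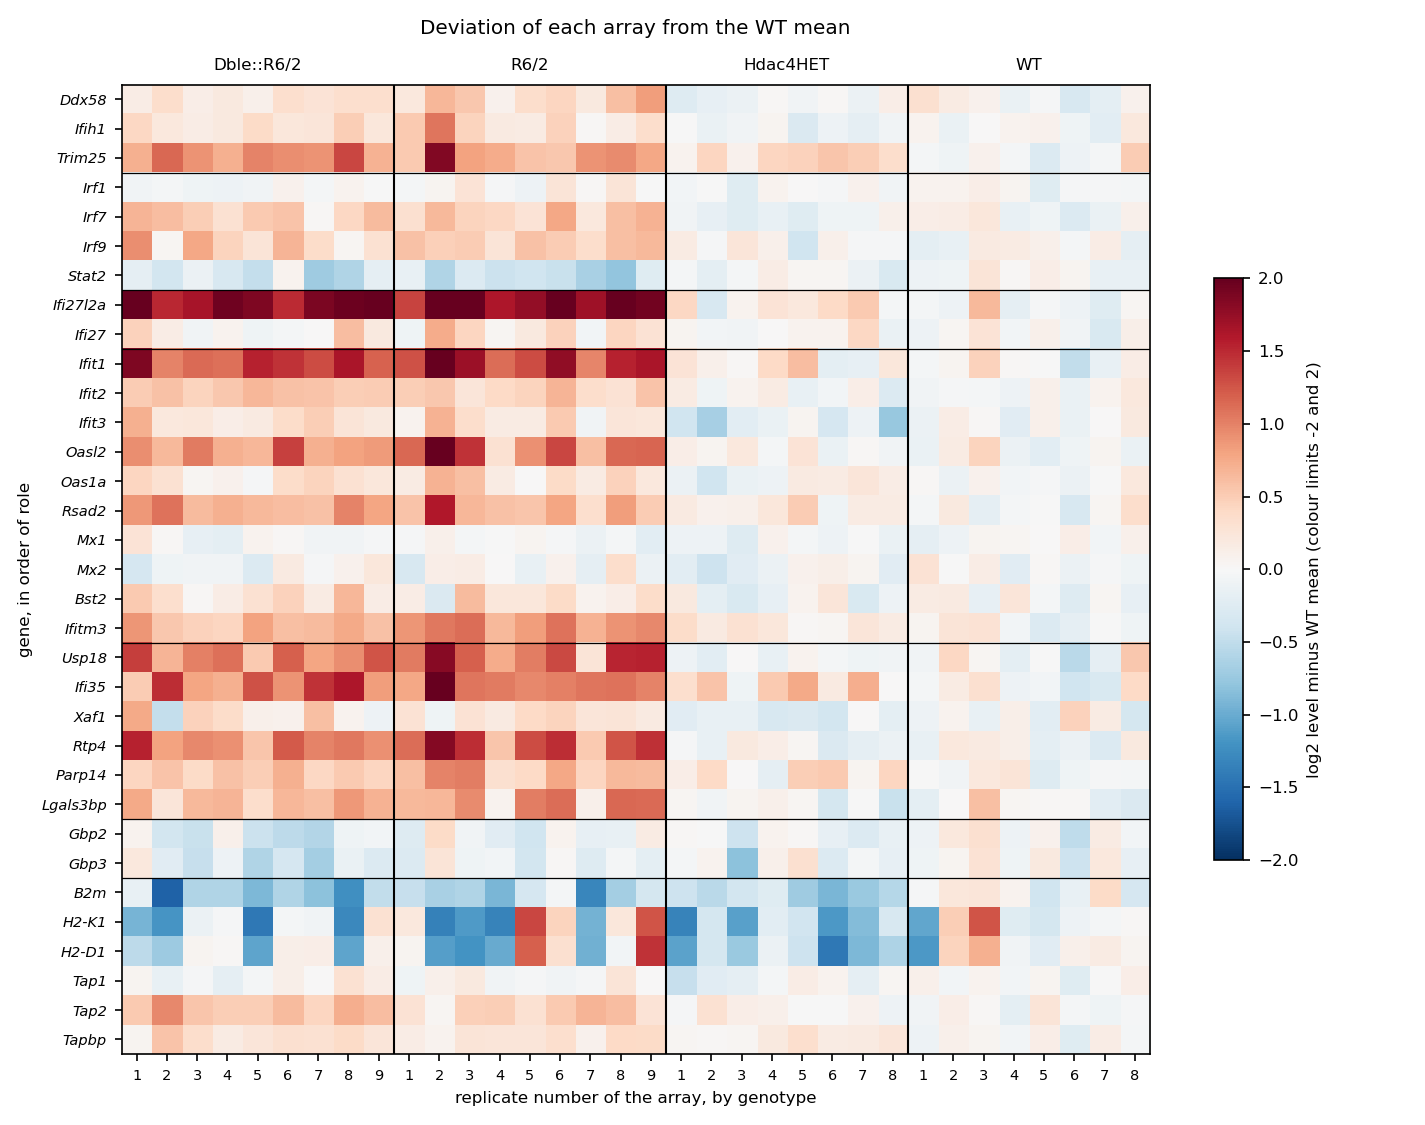
Log2 level of each of the 33 genes (rows) in each of the 34 arrays (columns, by genotype) as the difference from the WT mean of that gene. Most interferon genes are above 0 in both genotypes with the transgene, and the heavy chain genes H2-K1 and H2-D1 vary from mouse to mouse in every genotype.

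The map of single arrays can be reduced to the mean deviation from WT. Over the 27 genes outside class I it was 0.47 ± 0.09 in Dble::R6/2 (SD, range 0.38 to 0.65), 0.56 ± 0.21 in R6/2 (0.29 to 0.95), 0.01 in Hdac4HET (-0.07 to 0.11), and between -0.16 and 0.18 in WT. Every mouse with the transgene was above every mouse without it. Over the 6 class I genes it was -0.12 ± 0.22 in Dble::R6/2, -0.03 ± 0.39 in R6/2 and -0.31 ± 0.18 in Hdac4HET. It ran from -0.38 to 0.39 in WT, and all genotypes overlapped. This mean holds H2-K1 and H2-D1 and followed the split of H2-D1 levels. In every genotype the arrays under 7 on the second brightest H2-D1 probe set had the lowest class I means, -0.48 to -0.33 in R6/2. R6/2 replicates 5 and 9 and WT replicate 3, over 9.5 there, had the highest of their genotypes, 0.45, 0.50 and 0.39. The part of this split in the overlap was not tested.

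**Figure D5:**
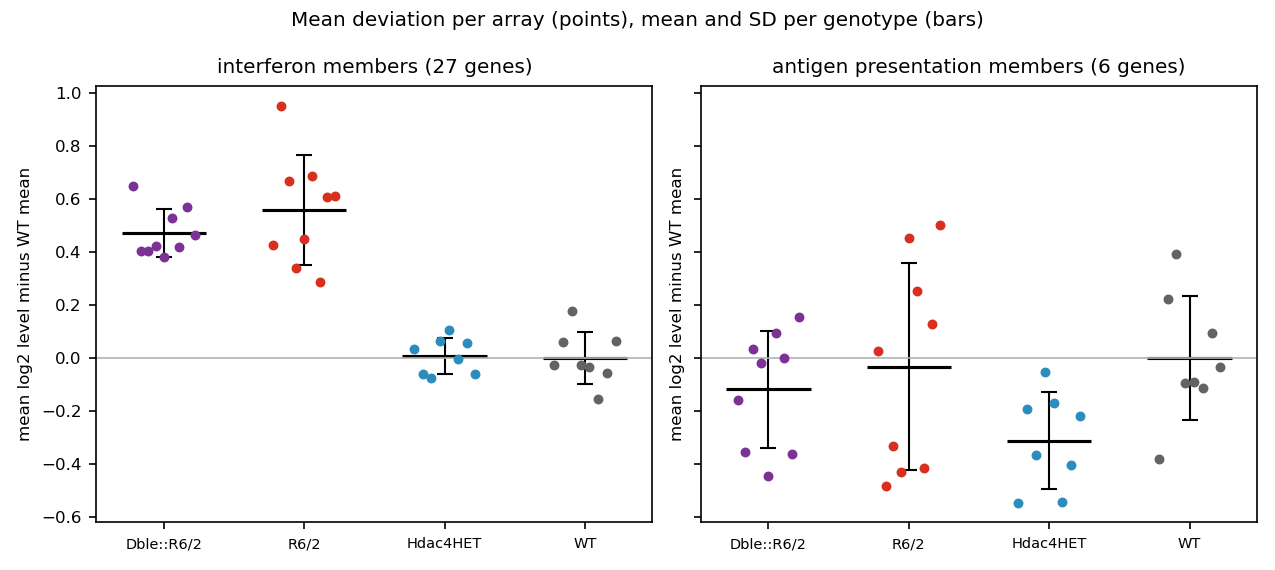
Mean log2 deviation from WT over the 27 interferon genes and over the 6 class I genes, 1 point per array, by genotype. The interferon mean is 0.29 or more in each mouse with the transgene and 0.18 or less in each mouse without it, and the class I means overlap. The class I mean follows the split of H2-D1 levels within each genotype.

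Ifi27l2a was correlated over mice with Ifit3, Oasl2, Irf7, Bst2, B2m and H2-K1, and Ifit3 with Oasl2, within each of the 4 genotypes, giving 28 relations. In the 9 R6/2 mice, Ifi27l2a and Ifit3 had Pearson's r = 0.90 (exact permutation p = 0.000598, adjusted 0.0167) and Spearman's rho = 0.95 (adjusted 0.00988), and r was 0.86 without the 2 mice farthest from the median. Ifi27l2a and Oasl2 had r = 0.81 (adjusted 0.107) and rho = 0.87 (adjusted 0.0421). Ifit3 and Oasl2 had r = 0.81 (adjusted 0.107) and rho = 0.88 (adjusted 0.0421), and Ifi27l2a and Bst2 r = -0.415 (adjusted 0.58). In the 9 Dble::R6/2 mice, Ifi27l2a and Ifit3 had r = 0.34 (adjusted exact permutation p = 0.711), and Ifi27l2a and Oasl2 r = -0.37 (adjusted 0.669). Every relation other than Ifi27l2a with Ifit3 in R6/2 had an adjusted permutation p of 0.107 or more for Pearson's r. Whether the genotypes differ in these relations was not tested.

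Of 84 further genes of the pathway, 78 were measured. In R6/2 against WT 21 were called higher (26.9%, against 20.2% of all genes) and 5 lower (6.41%, against 11.8%), with a median of 0.10. For Dble::R6/2 against Hdac4HET 23 were called higher (29.5%, against 18.3%) and 5 lower (6.41%, against 11.7%), with a median of 0.07. The 31 other interferon-stimulated genes held most of them, with 14 higher and 1 lower in R6/2 and 13 higher and 1 lower in Dble::R6/2. Among these Trim30a rose by 0.78 and 0.40, Eif2ak2, the RNA-activated kinase PKR, by 0.73 and 0.68, and Parp9 by 0.58 and 0.61. Herc6, a ligase that attaches ISG15 in mice, fell by 0.57 and 0.41. Samhd1, which degrades nucleotides needed by viruses, rose by 0.87 (limma adjusted p = 1.22e-05) in R6/2 over WT and by 0.73 (adjusted p = 7.15e-07) in Dble::R6/2 over Hdac4HET. Psme1, a proteasome activator subunit, rose by 0.66 and 0.61. Of the 10 genes in its list (immunoproteasome and class I accessory), 1 was higher and 3 lower in R6/2 than in WT. Over all genes there, 20.2% were higher and 11.8% lower. That list had a median of -0.04 and ran down to Pdia3 at -0.51. In Dble::R6/2 against Hdac4HET 2 of its genes were higher and 1 lower. The list with Samhd1 (nucleic acid sensing and adaptors, 12 genes) had 3 higher and 0 lower in R6/2, and 3 higher and 2 lower in Dble::R6/2. Among interferons and receptors 1 of 7 was higher (Ifngr1, 0.24) and 1 lower (Ifnar1, -0.19) in R6/2 than in WT, 14.3% each, near the shares over all genes. The class II list had 0 of 7 called by limma in both comparisons, with 0 at an unadjusted p under 0.05. Ifnb1, named after its values were seen, was at 3.65 in R6/2 and 3.51 in WT (adjusted p = 0.313).

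Markers of cell types moved with the transgene too. Of 13 microglial markers 8 were lower and 0 higher in R6/2 than in WT, where 11.8% of all genes were lower. In Dble::R6/2 against Hdac4HET 10 were lower, where 11.7% of all genes were. The microglial markers ran from P2ry12 at -2.20 to Csf1r at -0.03 in R6/2 against WT, with a median of -0.43. Their mean level was 7.16 (6.99 to 7.51) in Dble::R6/2 and 7.14 (6.89 to 7.46) in R6/2, and 7.62 (7.47 to 7.91) in Hdac4HET and 7.78 (7.47 to 8.00) in WT. Of 8 T, B and NK cell markers 0 were called by limma in R6/2 against WT and 0 had an unadjusted p under 0.05, with means of 4.29 to 4.68 in R6/2 and 4.37 to 4.55 in WT. Of 9 neuronal markers 8 were lower in both transgene comparisons, where 11.8% and 11.7% of all genes were called lower. Of 10 astrocyte markers 5 were lower in R6/2 than in WT, Aqp4 by -0.77, and 2 were higher, Vim by 0.60. Over all genes there, 11.8% were lower and 20.2% higher. In Dble::R6/2 against Hdac4HET 5 of the 10 were lower and 1 higher, where 11.7% and 18.3% of all genes were. Endothelial markers had 3 of 9 higher in R6/2 than in WT, where 20.2% of all genes were. In Dble::R6/2 against Hdac4HET they had 2 higher and 1 lower, where 18.3% and 11.7% of all genes were, with a median of -0.02. Markers of border macrophages, monocytes and neutrophils had 2 of 6 higher in R6/2 than in WT (33.3%, against 20.2% of all genes). They ran from S100a8 at 0.61 down to the macrophage marker Mrc1 at -0.25. Those of choroid plexus also had 2 of 6 higher, and ran from Ttr at 1.14 down to Folr1 at -0.07. Neither list had a limma call in Dble::R6/2 against Hdac4HET, where 2 and 0 genes had an unadjusted p under 0.05. In bulk cortex, fewer cells of a type and less RNA per cell cannot be told apart, and the part of these shifts in the interferon genes was not tested.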

How the data were processed

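Cortex RNA was hybridised to Affymetrix mouse arrays, 1 per mouse. The deposited values are log2 expression levels made by the authors. Which background correction and normalization they used is not given in the sources read here. Arrays of poor quality had been left out by the authors. Groups came from the genotype labels. The platform annotation gave 34945 probe sets a single symbol, 932 several and 9160 none, and 34741 matched RefSeq (GRCm38.p6). Pairs of genotypes were fitted with limma 3.58.1 in R 4.3.3 over 45037 probe sets, and the interaction over all 34 arrays. P-values measure the spread between these mice, whose litters are not given. Named genes were the members and, of the other pathway genes, up to 6 per list and comparison by size among those called, except where stated. The members and lists were chosen with earlier results of these data known. The fits were tested on simulated data. Alternatives covered normalization, probe set choice, filters, arrays left out, sex, and a replicate block.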

Additional observations from a re-analysis of the deposited data

Results flagged for a closer look

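In 13 of 132 groups of 1 gene in 1 genotype, the highest or lowest mouse stood apart by Dixon's criterion, which chance meets in about 1 of 20 groups. R6/2 replicate 2 accounted for 7 of the 13. It was the highest R6/2 mouse for Ifi27l2a (7.41, others 5.43 to 6.36), Ifit1 (7.47, others 5.63 to 6.43), Ifih1 (7.05, others 5.99 to 6.49), Trim25 (8.35, others 7.01 to 7.43), Rsad2 (7.26, others 5.98 to 6.48) and Ifi35 (8.25, others 6.82 to 7.14), and the lowest for Xaf1 (6.58, others 6.84 to 7.11). The same mouse had the keratin transcripts Krt5 at 6.45 and Krt14 at 5.07, against 5.27 to 5.69 and 3.57 to 3.91 in the other R6/2 mice, and the part of this in its interferon genes was not tested.

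WT replicate 3 stood apart for Ifi27l2a (4.74, others 3.84 to 4.12) and Lgals3bp (6.68, others 5.79 to 6.12). WT replicate 8 was high for Trim25 (7.001, others 6.22 to 6.57) and WT replicate 5 low for Irf1 (6.55, others 6.75 to 6.92). Hdac4HET replicate 5 was low for Irf9 (5.66, others 6.03 to 6.31) and Hdac4HET replicate 7 high for Ifi27 (8.56, others 8.01 to 8.22).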

How the results depend on the processing

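No call changed sign under the alternatives run, which read the brightest probe set or the mean of all. Single dimmer probe sets of Tapbp, Parp14, Rtp4 and Rsad2 gave a negative difference in a comparison where the brightest was called higher. The count of members called in R6/2 against WT, 22, ranged from 16 (brighter probe sets only) to 25 (array weights), and from 21 to 23 with 1 replicate left out. The fit on brighter probe sets held only those above the median mean level. It did not test Ddx58, Ifi27l2a, Ifit1, Irf7, Oasl2, Parp14, Stat2 and Usp18, which accounted for every call it lacked, and it gained Ifi27 and Xaf1. The count was 19 without the 4 arrays with high Prl. In Dble::R6/2 against Hdac4HET the count of 20 ranged from 14 (brighter only) to 22, and from 19 to 22 with 1 replicate left out. The calls missing from the brighter fit were those of the same untested genes other than Stat2, and Oas1a was gained. The members called in Hdac4HET against WT were 2, but 1 after quantile normalization, with the replicate block, with the mean of all probe sets and with the rule of a change over 30%, and 0 with sex read from Xist, with all 4 groups in a single fit, with the methods' t-test and without the high-Prl arrays. With 1 replicate left out this count was 0 to 2. The cause was not tested. The main fits did not pair mice by replicate number. Same-numbered pairs correlated above 0.1 in 4 of 8 for R6/2 against WT and 3 of 8 for Hdac4HET against WT. They did so in 6 of 9 for Dble::R6/2 against R6/2 and 3 of 8 for Dble::R6/2 against Hdac4HET. For Dble::R6/2 against R6/2, with 6 of 9, same-numbered mice had a mean correlation of 0.20 and other pairs -0.02. The replicate block lost the calls of Tapbp, R6/2 against WT (adjusted p = 0.0604), and Trim25, Hdac4HET against WT (adjusted p = 0.0778), and gained Ifi27, R6/2 against WT, and Stat2, Dble::R6/2 against Hdac4HET. With the replicate block the difference was 2.03 for Ifi27l2a, R6/2 against WT, and 1.62 for Ifi27l2a, Dble::R6/2 against Hdac4HET. Leaving out the high-Prl arrays does not apply to Dble::R6/2 against R6/2, which holds none.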
